A study of Mus musculus with 3 samples.

Results

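The RUNX and Ikaros family factors of group 2 innate lymphoid cells (ILC2s) were examined as a set of 9 genes, among 27179 genes in the count table. The members were chosen by name: the DNA-binding factors Runx1, Runx2 and Runx3, their shared partner subunit Cbfb, and the Ikaros family genes Ikzf1 to Ikzf5. All 9 were found in the table by matching its Entrez gene IDs to symbols. ILC2s are innate lymphocytes known for the cytokines of type 2 immunity. The series holds 1 group, made of 3 RNA sequencing libraries of ILC2s sorted from 3 wild-type C57BL/6 mice, and no treatment or comparison group. The sort required CD45, CD90.2, CD127 and KLRG1 on the cells. It removed cells with T cell (CD3, CD5, CD8), NK cell (NK1.1), myeloid (CD11b, CD11c) or B cell (B220) surface proteins. For tissue, age and sex of the mice, the labels give no entry. The libraries are called mouse 1, 2 and 3 after their sample numbers. The labels do not say which mouse gave which library, so a spread between mice here means a spread between these libraries.

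RUNX proteins bind DNA through a conserved Runt domain and need CBFβ, the product of Cbfb, for stable binding. The complex acts as an activator or a repressor according to its partners, among them the Groucho/TLE corepressors. In mouse lymphocytes it silences Cd4 in CD8 T cells and is needed for several innate lymphoid subsets. Ikaros family proteins are zinc finger factors that bind DNA through their amino-terminal fingers and form dimers through a carboxy-terminal pair. They work largely with the NuRD chromatin remodelling complex. Ikaros (Ikzf1), Helios (Ikzf2), Aiolos (Ikzf3) and Eos (Ikzf4) are close relatives, and Pegasus (Ikzf5) is more distant.

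The sequences that underlie these partnerships are shown first, because the partner genes are measured below. Each RUNX coding sequence ends in the codons of the pentapeptide that binds Groucho/TLE proteins, given in capitals in the last 45 coding bases, 5′ to 3′, stop codon included (GENCODE M21, longest coding sequence of each gene).
Runx1: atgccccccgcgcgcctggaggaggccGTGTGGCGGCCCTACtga
Runx2: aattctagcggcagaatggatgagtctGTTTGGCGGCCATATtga
Runx3: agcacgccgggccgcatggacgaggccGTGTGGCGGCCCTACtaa
Over these 45 bases Runx1 and Runx3 shared 77.8%, Runx1 and Runx2 62.2%, and Runx2 and Runx3 64.4%.

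The second zinc finger of the 4 closely related Ikaros proteins belongs to the DNA-binding set. It is shown as coding sequence, with the codons of the cysteines and histidines that hold the zinc in capitals.
Ikzf1: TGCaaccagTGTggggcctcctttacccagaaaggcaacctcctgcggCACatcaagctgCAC
Ikzf2: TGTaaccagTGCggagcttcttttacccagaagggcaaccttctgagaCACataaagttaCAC
Ikzf3: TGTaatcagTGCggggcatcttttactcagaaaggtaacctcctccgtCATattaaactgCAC
Ikzf4: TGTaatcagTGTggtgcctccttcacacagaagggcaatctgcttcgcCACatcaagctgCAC
In this stretch of 63 bases the pairs were 76.2% to 84.1% identical. The members are thus related in sequence, and the counting could in principle divide reads between them. In the reference transcripts with the longest coding sequence, 0 of the 36 pairs of members shared any exact run of 50 bases. Shorter or inexact matches and other transcripts were not searched, so whether reads were divided between members is not settled.

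The libraries held 17819551 to 26374248 counts, and 3 counts, taken as the most that a listed 0 could hide, equal 0.115 to 0.171 CPM (library-scaled count per 1000000). A gene was called detected at 1 CPM or more in each of the 3 libraries. All 12 ILC2 marker genes of the list used were detected. Marker genes of other lineages were detected in part. Plasma cell genes reached a summed 12473, 34250 and 62742 CPM in mice 1, 2 and 3, with 7 of 8 detected. Most of this sum was Igkc (4822, 18010 and 34158 CPM), Jchain (5527, 13790 and 18473) and Igha (1742, 2040 and 9391). Sdc1, the gene of this list not detected, had 1, 3 and 16 counts. Whether plasma cells were among the sorted cells was not tested. Of the other marker lists, 5 of 8 ILC3, 5 of 10 T cell, 3 of 8 NK cell and ILC1, 3 of 8 B cell, 3 of 10 myeloid and 5 of 8 mast cell, basophil and eosinophil genes were detected. The defining genes Ms4a1 and Pax5 (B cell), Ccr6 (ILC3), Klra8 (NK cell), Adgre1, S100a8 and S100a9 (myeloid), and Mcpt8, Ms4a2 and Siglecf (basophil, mast cell, eosinophil) had 0 counts. Because these are bulk samples, fewer cells of a type and less RNA per cell cannot be told apart.

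Of the 9 members, 8 were detected, and the exception was Ikzf4. Across the whole table, 31.1% of genes were detected. Levels of a single gene are given in CPM. Levels of different genes were compared as CPM per kb, that is CPM divided by the summed exon length of the gene, since full-length cDNA libraries give more reads to longer transcripts. All values are mean ± SD over 3 mice. Among 8049 detected genes with a known length the median was 5.33 CPM per kb. Over all 21572 genes with a known length, detected or not, it was 0.0985.

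Runx3 was the leading RUNX factor. It is known for establishing the CD8 T cell and cytotoxic programmes and lies on chromosome 4 (135120645 to 135177990, GRCm38.p6). It had 108, 107 and 80.4 CPM in mice 1, 2 and 3, from 2448, 1882 and 2096 counts. Mice 1 and 2 were alike and mouse 3 was lower, for a mean of 98.5 ± 15.7 CPM. Per kb the mean was 19.7 ± 3.13, above 73.8% of detected genes.

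Runx1, the factor required for definitive blood formation and for early T cell development, lies on chromosome 16 (92601466 to 92826074). It had 79.7, 62.7 and 54.7 CPM in mice 1, 2 and 3, with a mean of 65.7 ± 12.8. Its exons span 12025 bases, the longest of the 9 members, and its level per kb was 5.47 ± 1.06, close to the median of detected genes. The highest and the lowest mouse thus differed 1.46-fold for Runx1 and 1.34-fold for Runx3.

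Runx2, best known as the master regulator of bone formation, was the least abundant RUNX factor. It lies on chromosome 17 (44495987 to 44814797). It had 7.98, 5.01 and 3.07 CPM in mice 1, 2 and 3, from 181, 88 and 80 counts. At 0.606 ± 0.280 CPM per kb it stood above only 5.50% of detected genes.

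Runx3 exceeded Runx1 in CPM per kb in 3 of 3 mice, by 1.76 ± 0.16 on the log2(CPM per kb + 0.5) scale. Without division by length the difference fell to 0.58 ± 0.17, and with coding length in place of exon length it was 0.74 ± 0.17, so its size rests on the length used. Runx1 exceeded Runx2 in 3 of 3 mice, by 2.45 ± 0.12 (3.57 ± 0.36 without division by length). Each had an exact two-sided sign-flip p of 0.25, the smallest that 3 libraries allow. Both differences were larger than their spread between mice, and the sign-flip test cannot pass 0.05 with 3 libraries.

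As shares of the summed CPM per kb of the 3 DNA-binding factors, Runx3 held 74.1%, 78.7% and 76.6% in mice 1, 2 and 3. Runx1 held 22.8%, 19.2% and 21.7%, and Runx2 3.10%, 2.08% and 1.66%. Runx3 thus led in each library, while the small share of Runx2 was highest in mouse 1 and lowest in mouse 3. It also led without division by length, with 58.2 ± 3.03% against 38.7 ± 2.53% for Runx1, and with coding length, with 61.2 ± 2.91%.

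Cbfb, which encodes the subunit that all RUNX factors share, lies on chromosome 8 (105170674 to 105217989). It had 77.4, 56.3 and 46.6 CPM in mice 1, 2 and 3, with a mean of 60.1 ± 15.7. Mouse 1 was highest and mouse 3 lowest, as for each RUNX factor. Per kb it reached 17.3 ± 4.52, near the level of Runx3. Set against the summed level of Runx1, Runx2 and Runx3, which was 29.1, 27.2 and 20.97 CPM per kb, Cbfb was lower in 3 of 3 mice. The log2 difference was -0.58 ± 0.18 (exact sign-flip p = 0.25), and the ratio ran from 0.595 to 0.764. It was -1.51 ± 0.15 without division by length and -0.32 ± 0.16 with coding length.

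**Figure D1:**
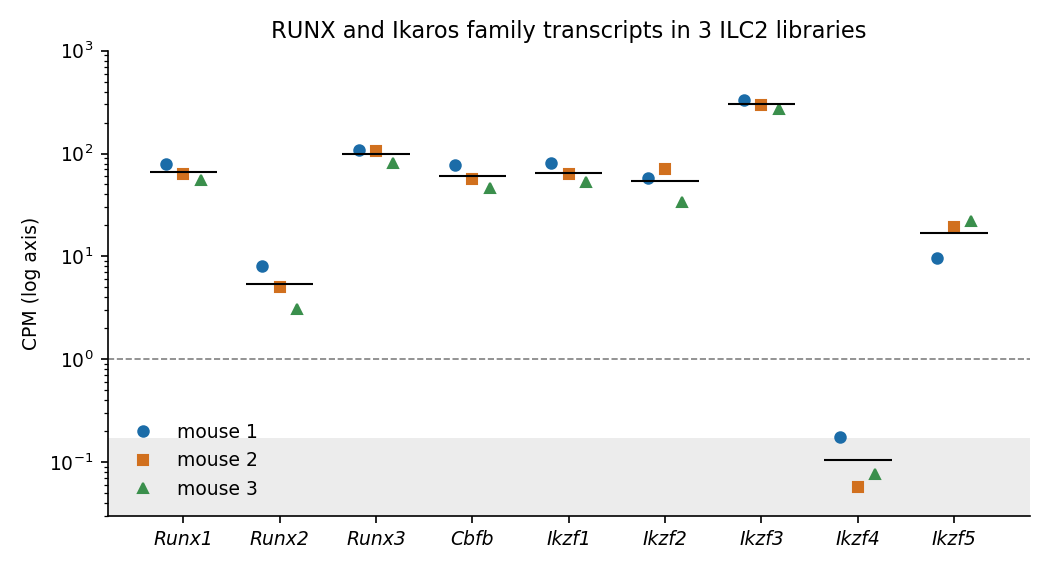
Level of each member in each of the 3 libraries in CPM on a log axis, with 1 point per mouse and a bar at the mean; the dashed line marks 1 CPM and the grey band everything up to 3 counts in the shallowest library (0.171 CPM). Ikzf3 is highest at 274 to 335 CPM, and Ikzf4 is the sole member below the dashed line.

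Ikzf3 was the most abundant member of the set. It encodes Aiolos, known from B cells, plasma cells and T helper subsets, and lies on chromosome 11 (98464610 to 98546031). It had 335, 296 and 274 CPM in mice 1, 2 and 3, from 7593, 5207 and 7144 counts. Its mean of 302 ± 30.9 CPM and its coefficient of variation of 10.2% made it also the steadiest of the 9. Per kb it reached 34.5 ± 3.53, above 81.5% of detected genes. Plasma cells also express Aiolos, and the summed plasma cell markers were lowest in mouse 1 and highest in mouse 3. Their part in the level of Ikzf3 was not tested.

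Ikzf1 encodes Ikaros, which is required for lymphoid development and, in mouse ILC3s, has been described as restraining the aryl hydrocarbon receptor. It lies on chromosome 11 (11684962 to 11772930). It had 80.2, 63.0 and 52.4 CPM in mice 1, 2 and 3, a mean of 65.2 ± 14.0. Its level in CPM was close to that of Runx1 in every mouse, although per kb it was higher, at 11.3 ± 2.43. Counts per gene do not separate full-length Ikaros from the shorter isoforms that lack DNA-binding fingers.

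Ikzf2 encodes Helios, a marker of regulatory T cells and of some innate lymphoid cells. It lies on chromosome 1 (69531207 to 69687351). It had 58.0, 70.9 and 33.6 CPM in mice 1, 2 and 3. Unlike the other abundant members it was highest in mouse 2, and mouse 3 had less than mice 1 and 2, for a mean of 54.2 ± 18.9 CPM. Foxp3, the defining gene of regulatory T cells, had at most 1 count in mice 1 and 2 and 21 in mouse 3. The part of such cells in the level of Ikzf2 was not tested.

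Ikzf5 encodes Pegasus and lies on chromosome 7 (131388649 to 131410518). It had 9.62, 19.3 and 22.2 CPM in mice 1, 2 and 3, and was thus lowest in mouse 1. Its value is uncertain: 4652 of its 5721 exon bases in GENCODE M21 are also exon of Pstk, and the library kit does not mark strand, so reads there cannot be assigned. Divided by all exon bases its level was 2.98 ± 1.15 CPM per kb. All its counts divided by the 1069 unshared bases alone gave 15.9 ± 6.16. That second value is an upper bound, since it holds only if no read in the shared bases was counted for Ikzf5. Whether this was so is not known.

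Ikzf4, which encodes Eos, a partner of Foxp3 in regulatory T cells, lies on chromosome 10 (128630839 to 128669671). It had 4, 1 and 2 counts in mice 1, 2 and 3, or 0.176, 0.0569 and 0.0767 CPM. These values lie at or near the level of 3 counts, and no fold against another member is given.

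Ikzf3 exceeded Ikzf1 in 3 of 3 mice, by 1.59 ± 0.15 on the log2(CPM per kb + 0.5) scale, and by 2.22 ± 0.16 without division by length. Ikzf1 exceeded Ikzf2 in 3 of 3 mice by 1.22 ± 0.38, but the difference without division by length was 0.31 ± 0.42 and with coding length 0.29 ± 0.42, within the spread between mice. For both pairs the exact sign-flip p was 0.25. Ikzf2 and Ikzf5 did not differ beyond their spread, with 0.58 ± 0.87, Ikzf2 higher in 2 of 3 mice, and an exact p of 0.5. The direction turned to -1.64 ± 0.94 with the exon bases shared with Pstk left out of Ikzf5's length and all its counts kept.

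Ikzf3 held 65.0%, 62.4% and 66.4% of the summed Ikaros family level per kb in mice 1, 2 and 3, and Ikzf1 held 23.6%, 20.1% and 19.2%. Ikzf2 held 8.48%, 11.3% and 6.14%, and Ikzf5 2.86%, 6.22% and 8.23%. The share of Ikzf3 was 69.0 ± 2.90% without division by length and 51.9 ± 5.11% with the shorter length for Ikzf5, and it was the largest mean share in each of these settings.

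**Figure D2:**
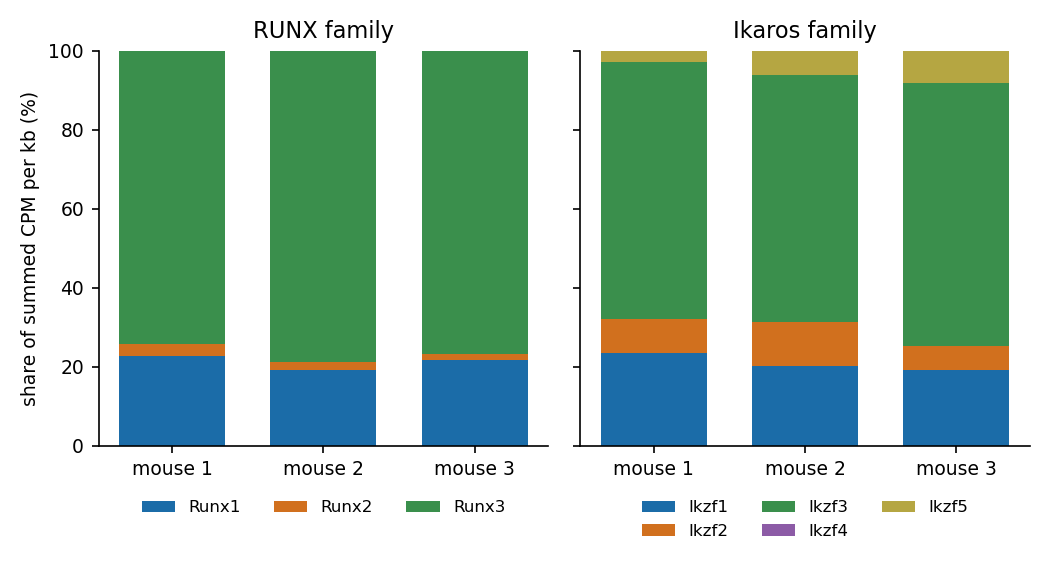
Share of the summed CPM per kb held by each factor, as stacked bars for each mouse, for the RUNX factors (left) and the Ikaros family (right). Runx3 takes 74.1% to 78.7% of the RUNX bars and Ikzf3 62.4% to 66.4% of the Ikaros bars, and Ikzf4 is too low to be seen.

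Across both families the order by mean CPM per kb was Ikzf3, Runx3, Cbfb, Ikzf1, Runx1, Ikzf2, Ikzf5, Runx2 and Ikzf4. The place of Ikzf5 rests on the exon bases shared with Pstk. At the upper bound, with all its counts set against the unshared bases alone, it would stand between Cbfb and Ikzf1. Ikzf3 stood above Runx3 by 0.80 ± 0.15 on the log2 scale, Cbfb above Ikzf1 by 0.58 ± 0.07, and Ikzf1 above Runx1 by 0.98 ± 0.05, each in 3 of 3 mice. The last 2 directions rest on the length used. Without division by length Cbfb minus Ikzf1 was -0.13 ± 0.06 and Ikzf1 minus Runx1 -0.016 ± 0.040, and with coding length Ikzf1 minus Runx1 was -0.19 ± 0.04. Ikzf3 minus Runx3 was 1.62 ± 0.15 and 1.37 ± 0.15 under those settings. Runx3 and Cbfb (0.20 ± 0.22) and Runx1 and Ikzf2 (0.25 ± 0.41) did not differ beyond their spread and changed places in 1 of 3 mice. With coding length Runx3 minus Cbfb was -0.38 ± 0.23. Ikzf5 exceeded Runx2 in 3 of 3 mice, by 1.62 ± 0.89, and by 3.84 ± 0.98 with the shorter length for Ikzf5.

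Genes with the most similar levels were sought by the Euclidean distance in log2(CPM per kb + 0.5) over the 3 libraries. For Runx3 they were Cdadc1 (distance 0.0639), H2az1 (0.0662) and Leng1 (0.0683). For Ikzf3 they were Gbp2 (0.0572), Irf2bp2 (0.0600) and H3f3a (0.109). With 3 libraries this is a statement of like level and no more.

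The members were then compared with all genes for variation between mice. A gene was called variable where its dispersion exceeded that of equally abundant genes, and 0 of the 8 members tested were called (edgeR quasi-dispersion F test, Benjamini-Hochberg over 9175 genes), against 0.207% of all genes, or 19. That number was 0 with a robust prior and 31 without mouse 1, and the members called stayed at 0 in both. In simulated data as dispersed as these, the test missed many variable genes, so a member that was not called is not shown to be steady. The lowest adjusted p was 0.977, and no alternative gave one below 0.927. Also 0 of 8 had an unadjusted p below 0.05, limma called 0 and DESeq2 marked 0 as dispersion outliers. Ikzf2 had the highest log2 ratio to the abundance trend, 1.00, above 81.1% of genes tested. Ikzf3 had the lowest, -1.88, above 23.4%. The other 6 lay between -0.84 (Runx3) and 0.06 (Cbfb). Ikzf4 did not pass the filter on low counts.

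**Figure D3:**
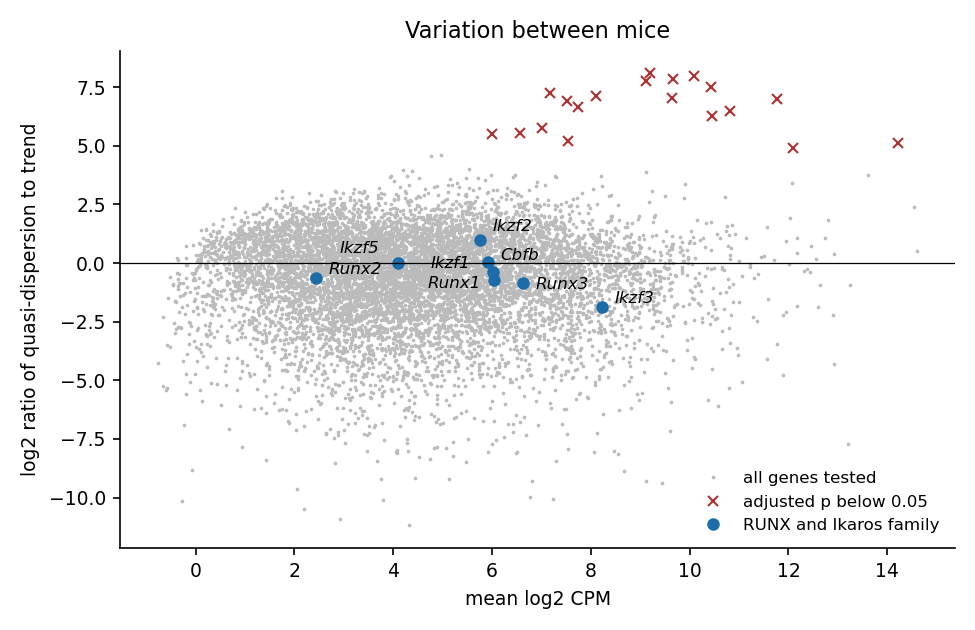
Ratio of each gene's quasi-dispersion to the abundance trend (log2) against its mean log2 CPM for 9175 genes; crosses mark genes with an adjusted p below 0.05 and blue points the 8 members tested. The members lie inside the cloud of all genes, with Ikzf2 highest and Ikzf3 lowest among them.

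Mouse 1 had the highest and mouse 3 the lowest CPM, with mouse 2 between, for 6 of the 8 detected members: Runx1, Runx2, Runx3, Cbfb, Ikzf1 and Ikzf3. This arrangement, noticed after the values were seen, occurred in 15.3% of all detected genes. With DESeq2 size factors it held for 5 of 8. None of these 6 genes passed the test of variability. The summed mast cell, basophil and eosinophil markers had the same arrangement, at 424, 247 and 222 CPM, most of it Kit (362, 199 and 173 CPM), with Mcpt8, Ms4a2 and Siglecf at 0. Among the detected genes of this list only Kit had the arrangement. Cpa3 and Hdc were lowest in mouse 2, and Fcer1a and Prg2 were highest there. The summed plasma cell markers had the opposite arrangement. The part of either group of cells in the result was not tested.

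Partners of the RUNX factors were taken from lists of genes with known roles. The share to set beside each count of detected list genes is the 31.1% of all genes detected. Of the factors known to bind DNA beside RUNX1, 5 of 10 were detected. Elf1 and Ets1, of the ETS family, had 609 ± 67.9 and 198 ± 54.2 CPM, and Gata3, the lineage regulator of ILC2s, 438 ± 76.4 CPM. The blood stem cell and erythroid partners Gata1 and Tal1 had 0 counts, and Cebpa had 0.0403 CPM. The detected members of this list had a median of 23.4 CPM per kb, against 5.33 over all detected genes. The median over all 10 was 0.741, against 0.0985 over all genes with a known length.

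Of 11 corepressor genes 7 were detected. Tle5, a short Groucho relative that lacks most of the repressor protein, led with 79.1 ± 58.7 CPM. Mouse 3 had 147 CPM, against 47.9 in mouse 1 and 42.6 in mouse 2, and the mean without mouse 3 was 45.3. The full-length genes Tle4 (26.3 ± 5.40) and Tle3 (21.1 ± 4.03) followed, while Tle2 (0.660 ± 1.11) and Tle6 (0.0511 ± 0.0886) were lowest. Of 6 coactivator genes 5 were detected, with Prmt1 (19.5 ± 1.26), Crebbp (13.2 ± 10.3) and Kat6a (11.3 ± 5.07) highest and Brpf1 (7.85 ± 1.25) and Kat6b (3.89 ± 2.90) lowest. Mouse 1 carried the level of Crebbp, with 25.1 CPM against 6.48 and 8.13 in mice 2 and 3, and without mouse 1 its mean was 7.31, below Kat6a. Kat6b had 0.926, 6.71 and 4.03 CPM, a mean of 2.48 without mouse 2. The detected corepressors had a median of 1.76 and the detected coactivators of 1.16 CPM per kb, both below the median of all detected genes. Over all members of each list the medians were 0.760 and 1.07.

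The NuRD complex, the main partner of Ikaros proteins, was represented by 12 of 13 genes. The histone chaperones Rbbp7 (359 ± 22.0 CPM) and Rbbp4 (150 ± 33.4) and the deacetylase Hdac2 (109 ± 18.2) were highest, Gatad2b had 2.63 ± 1.35, and Mta1 had 2 counts in all. The remodelling ATPase Chd4 had 29.5, 9.84 and 15.7 CPM in mice 1, 2 and 3. Of 6 other corepressor genes 5 were detected, with Sin3b (328 ± 20.2 CPM), the demethylase gene Kdm1a (32.4 ± 11.2) and Ctbp1 (18.5 ± 7.47) highest and Sin3a (9.48 ± 3.91) and Ctbp2 (0.405 ± 0.544) lowest. All 5 genes of the cereblon ubiquitin ligase, which degrades human Ikaros and Aiolos in the presence of thalidomide-like drugs, were detected. Rbx1 (233 ± 57.1), Crbn (192 ± 25.6), which encodes cereblon, and Ddb1 (56.9 ± 12.7) were highest, and Cul4b (30.7 ± 11.4) and Cul4a (9.44 ± 4.02) lowest. The median of the detected NuRD genes was 4.86 CPM per kb, and 4.04 over all 13.

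**Figure D4:**
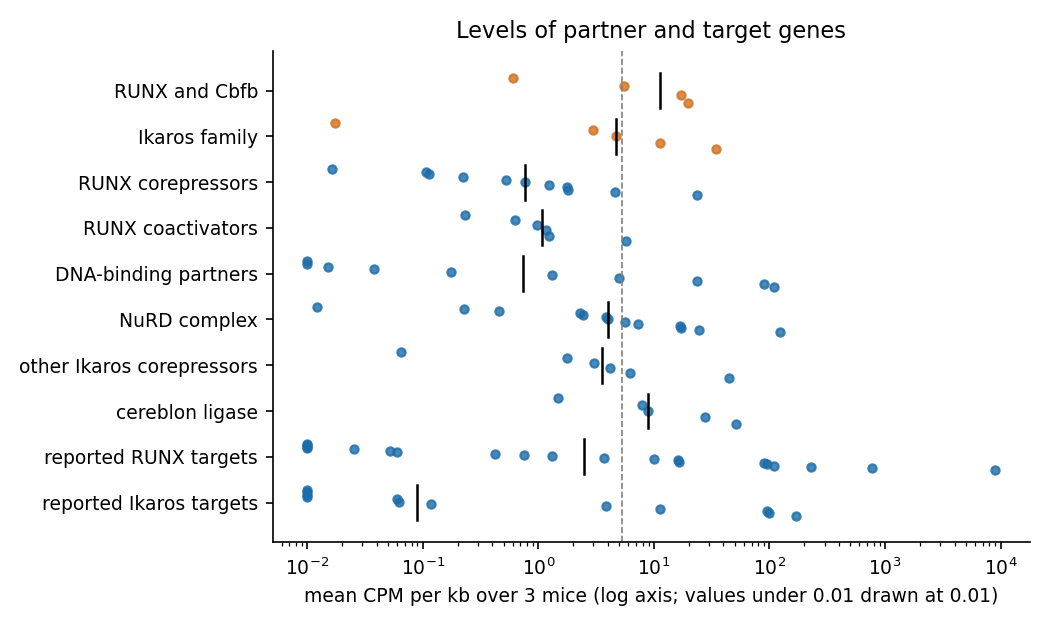
Mean CPM per kb over 3 mice (log axis) of every gene with a known length in the member lists (orange) and the partner and target lists (blue), with a black bar at each list's median; the dashed line is the median of detected genes, 5.33 CPM per kb. Points at the left edge are genes too low for the axis, and Csf2, a reported RUNX target, is the highest gene drawn.

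Genes reported as regulated by RUNX factors in lymphoid or myeloid cells were divided in level: 11 of 20 were detected. Csf2, which encodes GM-CSF, had 7198 ± 2199 CPM, Il7r 1058 ± 195 and Il4 952 ± 491. Cd4, the gene that RUNX silences in CD8 T cells, had 1 count in all, and Cd8a had 0.0147 CPM. Both belong to T cells, and CD8 was excluded by the sort. Il10 and Tigit, which have been described as raised in mouse ILC2s without CBFβ, had 0.0782 ± 0.0348 and 14.97 ± 4.97 CPM. Itgae, a Runx3 target in CD8 T cells, had 0, 12 and 1 counts in mice 1, 2 and 3.

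Of 12 genes reported as regulated by Ikaros factors 5 were detected, beside 31.1% of all genes. They were Hes1 (344.5 ± 50.7 CPM), a Notch target, Cd79b (141 ± 12.8), Il2 (110 ± 24.7), which Aiolos represses in T cells, Ahr (70.0 ± 17.9) and the integrin gene Itga4 (53.7 ± 11.7). The lymphoid progenitor genes Dntt and Igll1 had 0 counts. The detected genes of this list had a median of 95.9 CPM per kb. All 12 had a median of 0.0896, near the 0.0985 over all genes with a known length. The choice of genes, made with earlier results of these data known, is not independent of that.

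The promoter of Runx3 is shown because Runx3 leads its family and this was the sole member window that held both RUNX and Ikaros letters. Motifs were sought in the 250 bases before each annotated start (RefSeq, GRCm38.p6) on both strands. They were TGTGGT for RUNX, TGGGAA for Ikaros and CGGAAG for ETS proteins. Such windows were at hand for Runx1 (2), Runx2, Runx3 (2), Cbfb, Ikzf1 (2) and Ikzf5. The window before the distal start of Runx3, chr4:135120395-135120644 on the plus strand, has RUNX letters on the minus strand that begin 134 and 126 bases before the start and Ikaros letters that begin 154 bases before it, all in capitals, with no overlap.
Runx3 distal: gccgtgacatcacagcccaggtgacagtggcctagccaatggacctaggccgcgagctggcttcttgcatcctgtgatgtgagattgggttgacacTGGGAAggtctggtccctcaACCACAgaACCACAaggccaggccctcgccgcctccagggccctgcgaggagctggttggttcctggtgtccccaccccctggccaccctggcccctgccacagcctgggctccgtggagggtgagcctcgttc
Of 32851 windows of this length 14.0% held the RUNX letters and 21.6% the Ikaros letters. The ETS letters were in 13.6% of these windows and in no member window. Among the other member windows only that of Runx2 held RUNX letters, 80 bases before its start. Gene counts do not tell from which start a Runx3 transcript came.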

How the data were processed

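RNA was sequenced from 3 libraries of sorted ILC2s made with the SMARTer Ultra Low Input kit, per the labels' protocols. The authors deposited raw read counts per Entrez gene ID. CASAVA 1.8.2, STAR 2.3.0 and mm10 are named in the submitters' processing notes. The counting program, its annotation and its handling of shared reads were not given in the sources used here. Labels do not say which mouse gave which library, and the p-values refer to these 3 libraries only. Of 27179 IDs, 25275 had a symbol in the RefSeq table of GRCm38.p6, and 21572 had an exon length in GENCODE M21. Unnamed IDs, 0.186% to 0.242% of counts, stayed in the library sizes.

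CPM used TMM factors (1.02, 0.987 and 0.989; edgeR 4.0.16, R 4.3.3). Log values had 0.5 added. Levels were compared within libraries by an exact sign-flip test. Variability used an intercept-only quasi-likelihood fit after filterByExpr (minimum count 10), adjusted over all genes at 0.05, and was tested on simulated data, in which it recovered all or most variable genes at a low dispersion and fewer at one like that of these libraries. limma 3.58.1 and DESeq2 1.42.0 were alternatives. Named genes were all members, the 3 highest and 2 lowest of each partner and target list, those without counts and defining markers; the marker lists are given by their sums. Chd4, Il10, Tigit, Itgae, Ahr and Itga4 fall outside this rule and were chosen after their values were seen. So were the marker genes Igkc, Jchain, Igha, Sdc1, Kit, Cpa3, Hdc, Fcer1a and Prg2. Some list genes are not reported here. Members and lists were chosen with earlier results of these data known. Intervals of depth cover counting error only.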

Additional observations from a re-analysis of the deposited data

How the results depend on the processing

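No paired analysis was possible because all libraries form 1 group. The coding length, the DESeq2 factors in the variability results, both scalings of the arrangement, the shorter Ikzf5 length and every alternative for the order over both families were chosen after seeing the data; coding length replaced a protein table not used here. Gene length mattered most. Without division by length the log2 differences were 0.58 (Runx3 over Runx1), 3.57 (Runx1 over Runx2), 2.22 (Ikzf3 over Ikzf1), 0.31 (Ikzf1 over Ikzf2), 1.66 (Ikzf2 over Ikzf5) and -1.51 (Cbfb against the RUNX sum), and the shares were 38.7%, 3.06% and 58.2% for Runx1, Runx2 and Runx3 and 14.8%, 12.2% and 69.0% for Ikzf1, Ikzf2 and Ikzf3. With coding length the differences were 0.74, 3.84, 2.298, 0.29 and -0.32 for the same pairs without Ikzf2 over Ikzf5, and the shares 36.6% (Runx1), 61.2% (Runx3), 14.1% (Ikzf1), 11.7% (Ikzf2) and 69.6% (Ikzf3). A pseudocount of 0.1 gave 3.04 and of 1 gave 2.01 for Runx1 over Runx2. The shorter Ikzf5 length reversed Ikzf2 over Ikzf5 to -1.64, by its own construction, and gave shares of 17.0% (Ikzf1), 51.9% (Ikzf3) and 24.1% (Ikzf5). In the order over both families, Cbfb minus Ikzf1 turned to -0.13 and Ikzf1 minus Runx1 to -0.016 without division by length, and with coding length Ikzf1 minus Runx1 turned to -0.19 and Runx3 minus Cbfb to -0.38. The genes called variable, 19 of all tested, were 0 with a robust prior and 14 to 31 without a mouse. At a minimum of 5 CPM, 4 in place of 7 RUNX corepressors were detected. In the other 63 comparisons of a main result with an alternative the value moved by less than the spread between mice, or a count by less than 1.5 times, and the same holds for 71 that left out a mouse. Without each mouse in turn, Ikzf2 over Ikzf5 was 0.20 to 1.05. Depth limits what can be said of Ikzf4, with at most 4 counts a library.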
